A study of Mus musculus with 8 samples.

Results

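Glucose uptake and glycolysis are represented here by 10 protein-coding genes, taken by name from a table of 22033 protein-coding genes among 54531 annotated features. They are the insulin-responsive glucose transporter Slc2a4, the kinases Hk2, Pfkm and Pkm, the aldolase Aldoa, the dehydrogenases Gapdh, Ldha and Ldhb, the mutase Pgam2 and the enolase Eno3. The study sequenced short RNAs from hearts of 24-week-old C57BL/6 mice, with 4 libraries labelled RNase H1+/+ (wild type) and 4 labelled RNase H1-/-. In the RNase H1-/- mice, loxP sites around an exon of Rnaseh1 are recombined by Cre driven from the promoter of muscle creatine kinase, which is active in heart and skeletal muscle, and the heart controls shown in the paper carry the loxP alleles without Cre although the labels call them wild type. The sources also differ on the input, which is heart tissue in the labels and RNA of purified heart mitochondria in the published methods.

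Glycolysis splits glucose into pyruvate in the cytosol, and lactate dehydrogenase interconverts pyruvate and lactate. The adult heart draws most of its energy from fatty acids, and glucose enters its muscle cells through Slc2a4, which insulin and contraction bring to the cell surface. Most steps are served by several isoenzymes encoded by different genes, and muscle has its own form of phosphofructokinase (Pfkm), phosphoglycerate mutase (Pgam2) and enolase (Eno3). Several of these mRNAs have been copied back into the mouse genome many times as processed pseudogenes.

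Every level below is the mean normalised read count, the average made by the authors over all 8 libraries of both genotypes after division by a size factor per library. The columns of single libraries are named mtRNA followed by numbers. These names fit none of the titles, and neither genotype can be read from them, so these columns were not used. Levels per library or genotype are therefore not given, knockout and wild type were not compared, and the spread behind each mean was not computed. Differences between genes are given as sizes only, and whether genes next to each other in an order differ beyond the spread over libraries was not tested. Reads of an mRNA in a library of short RNAs come from pieces of it, whose number can differ from that of the intact mRNA. In the published methods the input was RNA of purified mitochondria. Whether levels of nuclear-encoded mRNAs there follow those in heart tissue was not tested. Fewer cells of a type and less RNA per cell cannot be told apart in these samples.

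Protein-coding genes held 5.03% of the summed means, against 73.3% for small nucleolar RNAs and 4.25% for mitochondrial features. A mean above 0 was found for 11104 protein-coding genes, with a median of 0.512, and the smallest mean above 0 among all features was 0.0637. The heart label was checked on marker genes, where all 8 cardiomyocyte genes had means between 36.8 and 662, whereas the 6 genes of fast skeletal muscle had means between 0 and 0.686. Marker genes of other cell types had lower medians than the 69.7 of the cardiomyocyte genes. These were 13.3 over 6 fibroblast genes, 7.47 over 5 erythroid genes and 4.64 over 5 endothelial genes. Medians were 2.49 over 5 smooth muscle and pericyte genes, 0.676 over 5 leukocyte genes and 0.215 over 5 adipocyte genes. The leukocyte genes ran from 0 for the T cell gene Cd3e to 6.42 for Lyz2. The adipocyte genes ran from 0 for Lep to 2.98 for Fabp4. The part of other cell types in the levels below was not tested. The mean of Rnaseh1 itself was 0, so the targeted gene gave no check of the genotypes.

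All 10 genes were read in these libraries, and all 10 lay in the top 5% of protein-coding genes with a mean above 0. Their means ran from 4.74 to 28.4, a 5.99-fold range with a median of 11.8, and together they made 0.314% of the protein-coding sum. Pkm, Aldoa and Pfkm were also in the top 1%, and the lowest, Slc2a4, was above 95.4% of protein-coding genes that were read. These places depended on the genes ranked against. Among all features with a mean above 0, 8 of the 10 genes were in the top 5%, without Slc2a4 at 94.4% and Ldha at 94.8%. Among protein-coding genes with a mean of at least 1, only Pkm, Aldoa, Pfkm and Ldhb were in the top 5%, and Slc2a4 was above 84.4%. On both of these scales 0 of the 10 were in the top 1%, and Pkm, the highest, was above 98.3%. For scale, 212 protein-coding genes had a mean of at least 10, and 6 of the 10 genes were among them.

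**Figure D1:**
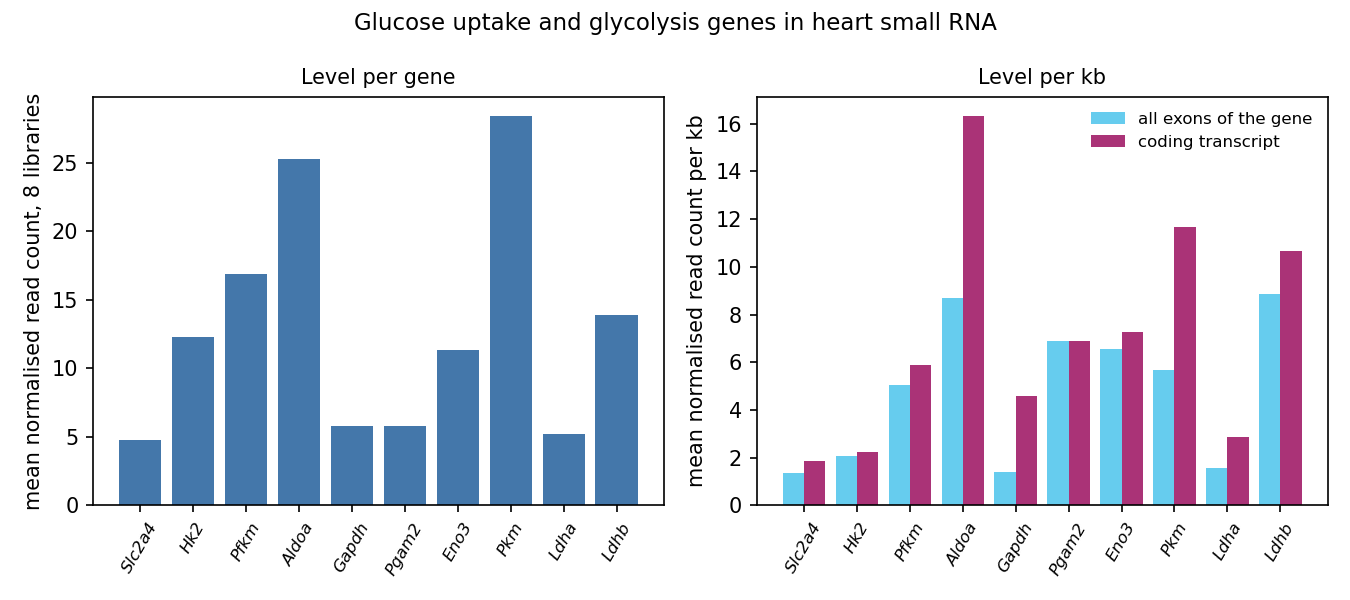
Mean normalised read count of each gene over the 8 libraries (left) and the same value divided by length in kb (right), using all exons of the gene or its longest-coding transcript. Bars are single authors' means without error; Pkm and Aldoa are highest per gene at 28.4 and 25.3, and Slc2a4 is lowest on all 3 scales.

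At the entry of the pathway, Slc2a4 (chromosome 11, 69942539 to 69948188, GRCm38) had a mean of 4.74, the lowest of the 10. Among glucose transporters it was nevertheless the highest, with Slc2a1, the transporter of most cell types, at 1.74, Slc2a3 at 1.08 and Slc2a12 at 0.214. Per kb of exon, Slc2a4 was 2.75-fold above Slc2a1.

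Hk2 (chromosome 6, 82725025 to 82774454), the hexokinase of insulin-responsive tissues that traps glucose as glucose-6-phosphate, had a mean of 12.3. The broadly expressed Hk1 had 5.98. Per kb of exon Hk2 was 2.94-fold above Hk1, but only 1.44-fold above it per kb of the longest-coding transcript. This was the smallest lead of a gene over its isoenzyme on that scale among the 7 pairs compared. Hk3 and Hkdc1 stood at 0.

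Pfkm (chromosome 15, 98092589 to 98132451), the muscle form of the enzyme that commits sugar to glycolysis, had a mean of 16.9. The liver form Pfkl had 2.47 and the platelet form Pfkp 2.18. Per kb of exon Pfkm was 13.7-fold above Pfkl and 31.1-fold above Pfkp, and per kb of transcript 8.89-fold and 11.2-fold. A transcript annotated as Gm26513 on the same strand covered 10.2% of the exon bases of Pfkm and had a mean of 0.152. Reads there overlap both genes.

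Aldoa (chromosome 7, 126795234 to 126800751), which splits fructose-1,6-bisphosphate into 3-carbon sugars, had a mean of 25.3, whereas the brain form Aldoc stood at 0. The table holds another protein-coding row named Aldoa (126800790 to 126809108), and its mean was 0.

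Gapdh (chromosome 6, 125161715 to 125166467), the dehydrogenase that makes NADH in glycolysis, had a mean of 5.83. This was the seventh of the 10 by mean, and the ninth per kb of exon at 1.41. Its exons span 4133 bases when retained introns are counted, against 1273 bases of the longest-coding transcript, and per kb of that transcript its level was 4.58. The sperm form Gapdhs stood at 0.

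Pgam2 (chromosome 11, 5801640 to 5803733), the muscle phosphoglycerate mutase, had a mean of 5.78 on a transcript of only 840 bases. Per kb of exon this was 6.88, the third of the 10. The non-muscle Pgam1 had a mean of 2.08, so that Pgam2 led by 6.57-fold per kb of exon and by 5.88-fold per kb of transcript. Eno3 (chromosome 11, 70657202 to 70662513), the muscle enolase, had a mean of 11.4 against 2.60 for the general form Eno1, and neuronal Eno2 stood at 0. Eno3 was 13.5-fold above Eno1 per kb of exon and 5.66-fold per kb of transcript.

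Pkm (chromosome 9, 59656368 to 59679375), which makes pyruvate and ATP, had the highest mean of the 10 at 28.4, whereas Pklr, the form of liver and red cells, had 0.112. Counts per gene do not separate the muscle and general splice forms of Pkm. A transcript annotated as Gm49759 on the same strand covered 15.3% of its exon bases and had a mean of 0.241.

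Of the lactate dehydrogenase subunits, Ldhb was read more than Ldha on every scale used. Ldhb (chromosome 6, 142490249 to 142507957), the subunit that predominates in heart muscle, had a mean of 13.9, and Ldha (chromosome 7, 46841475 to 46855627), which predominates in fast skeletal muscle, had 5.24. The lead of Ldhb was 2.66-fold by mean, 5.60-fold per kb of exon and 3.70-fold per kb of transcript. Ldhc, the form of the testis, stood at 0.

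**Figure D2:**
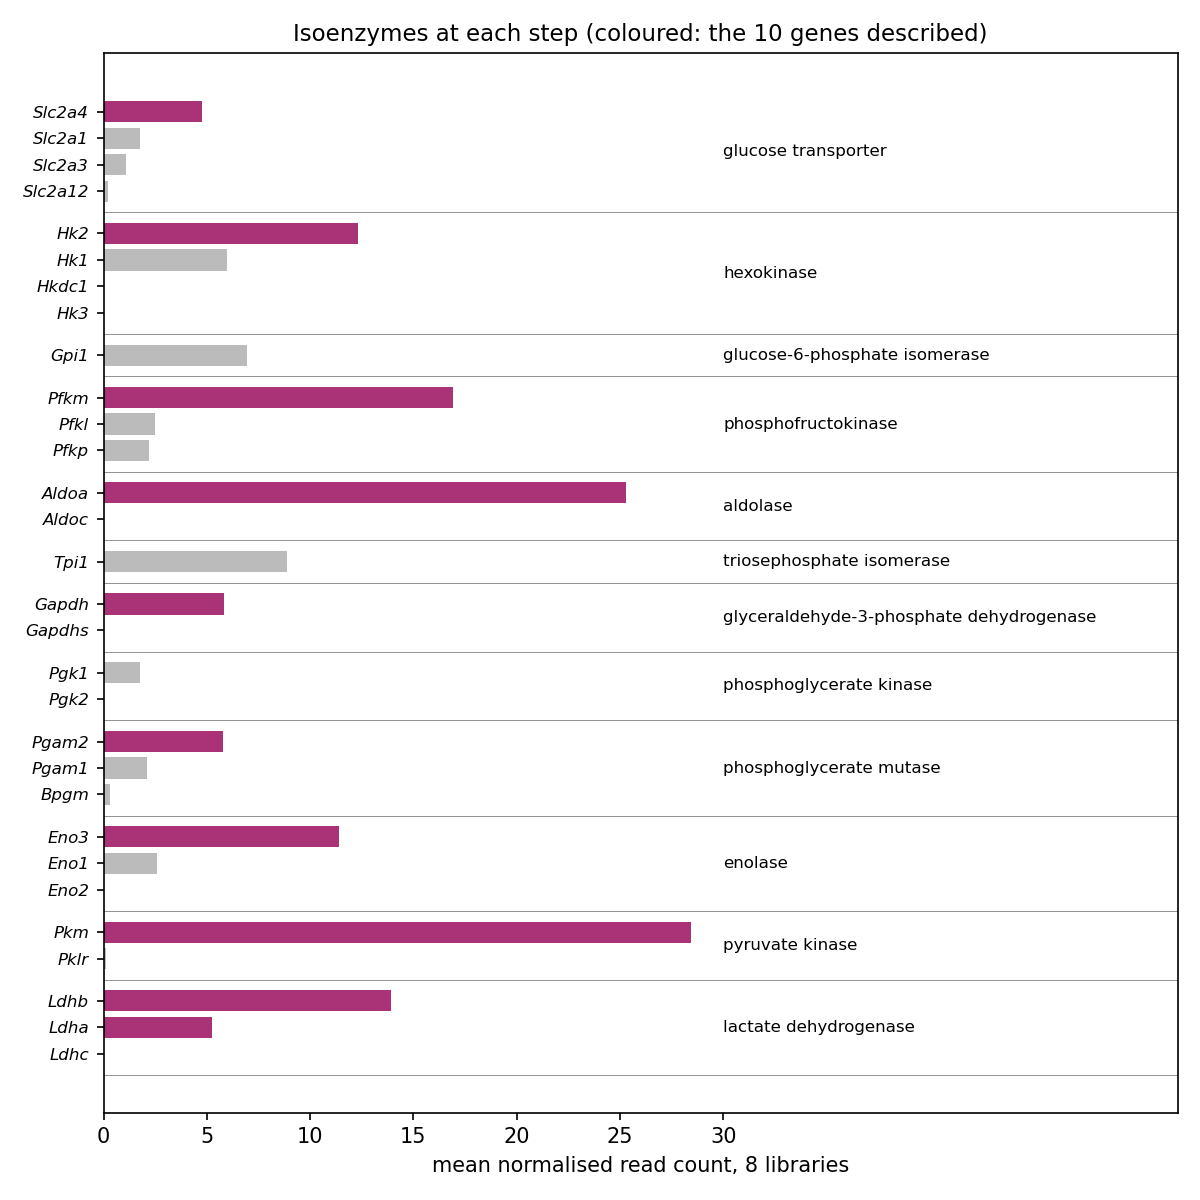
Mean normalised read count over the 8 libraries for isoenzymes grouped by step from glucose uptake to lactate, with the 10 genes described in colour and other genes in grey. Bars are single authors' means without error; at each step that holds a coloured gene, a coloured gene has the longest bar, for example Pfkm at 16.9 above Pfkl at 2.47.

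At all 9 steps that the 10 genes cover, one of them had the highest mean, from 61.0% of the summed mean at the glucose transporter to 100% at Gapdh. The only other gene listed at the Gapdh step was Gapdhs, at 0. Copies were left out of these shares, and of its sum with copies Gapdh held 9.10%. The 10 genes were chosen with earlier results of these data known, so their lead is a description of the choice as well as of the libraries. The other genes of glucose uptake and glycolysis had a lower median, with 19 of 26 above 0, a median of 0.322 against 11.8, and none at 10 or more. The highest of these were Tpi1, the triosephosphate isomerase, at 8.87, the isomerase Gpi1 at 6.92, and Hk1. Pgk1, the only phosphoglycerate kinase read, had a mean of 1.75, and its per kb level of 0.778 was the lowest of the 12 steps from uptake to lactate. All of its coding windows of 30 bases, however, occur in pseudogenes, whose means summed to 7.10, and with them Pgk1 had 8.84, above Ldha with its copies at 8.58. The enzymes that set fructose-2,6-bisphosphate, Pfkfb1 to Pfkfb4, had means between 0.175 and 0.460.

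Genes next to glycolysis had medians below the lowest of the 10 genes, although their leading genes reached the range of the 10. Of 12 genes of glycogen metabolism all were above 0 (median 3.12), led by the glycogen phosphorylases Pygm at 18.4 and Pygb at 17.2. Of 10 genes of pyruvate and lactate handling 9 were above 0 (median 3.21), led by Pdha1 of pyruvate dehydrogenase at 16.4, the inhibitory kinase Pdk4 at 10.3 and Pdhb at 6.44. The lactate transporter Slc16a1 had 4.43, whereas Slc16a3, the form of glycolytic muscle, had 0.138. Both transporters were named after their values were seen.

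The 10 genes fell into groups of equal size by whether exact windows of 30 bases of their coding sequence occur in transcripts of other genes. Exon bases outside the coding sequence also take up reads and are not covered. In Hk2, for example, 2751 of 5513 transcript bases are coding. Each coding sequence was cut into all windows of 30 bases, and each window was searched exactly and in sense in the annotated transcripts of all other genes. For Slc2a4, Hk2, Pfkm, Pgam2 and Eno3, 0 windows were found elsewhere. For Gapdh 94.3% of windows were found in at least 1 other gene, for Pkm 79.8%, for Ldha 58.8%, for Ldhb 55.4% and for Aldoa 43.0%. Where such a window lies within 1 exon, a fragment from it matches several places equally well. The aligner at its default settings then reports 1 of them. Windows were cut from spliced transcripts, whereas reads were aligned to the genome. A window across an exon junction is therefore interrupted at the parent gene but not in a copy without introns. The share of windows across junctions was not counted.

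The windows below show the difference. In capitals is the coding window, within 1 exon, that occurs in the most other genes, and in lower case are the first coding windows of Eno3 and Pgam2 within 1 exon, which occur in no other gene. The Gapdh window (chr6:125162917-125162946, minus strand, exon 4 of 7) occurs in 131 other genes, 127 of them pseudogenes. The Ldha window (chr7:46847621-46847650, plus strand, exon 2) occurs in 11 and the Aldoa window (chr7:126796270-126796299, minus strand, exon 7) in 5. The Eno3 window lies at chr11:70657874-70657903 on the plus strand and the Pgam2 window at chr11:5803659-5803688 on the minus strand. All are read 5′ to 3′ from GENCODE transcripts on GRCm38.
Gapdh: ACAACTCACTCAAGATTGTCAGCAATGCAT
Ldha: TGGCAACCCTCAAGGACCAGCTGATTGTGA
Aldoa: ATGGCATTGTACCCATTGTGGAGCCTGAAA
Eno3: atggccatgcaaaaaatcttcgcccgggaa
Pgam2: atgaccacccaccgcctagtaatggttcgc

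Most reads assigned to the Gapdh family lay on pseudogenes. Of 327 pseudogenes in the table that shared a window with Gapdh, 101 had a mean above 0, and their means summed to 56.5, which was 9.70-fold the mean of Gapdh itself. No single copy exceeded Gapdh. The highest were Gm13394 at 3.58 and Gm12033 at 3.36, each with 89.7% of the windows of Gapdh, and the median of those above 0 was 0.256. These copies were 2.51% of all pseudogenes in the table and held 5.47% of the summed pseudogene means. Of all 13037 pseudogenes in the table, 14.7% had a mean above 0, against 30.9% of the Gapdh copies.

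Copies of the other genes held less than the genes themselves. Pkm had 12 pseudogenes in the table with a summed mean of 14.7, of which 12.3 lay on Gm6560, a processed pseudogene that carries 59.5% of the windows of Pkm. Aldoa had 8 with a summed mean of 11.3, and its protein-coding retrogenes Aldoart1 and Aldoart2 had means of 4.66 and 2.18. Ldha had 27 with a summed mean of 3.34, of which 8 were above 0. Ldhb had a single one, Gm5514, at 3.16. Whether the reads on these copies came from the copies or from the parent genes was not tested, because the deposited counts hold no read sequences.

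**Figure D3:**
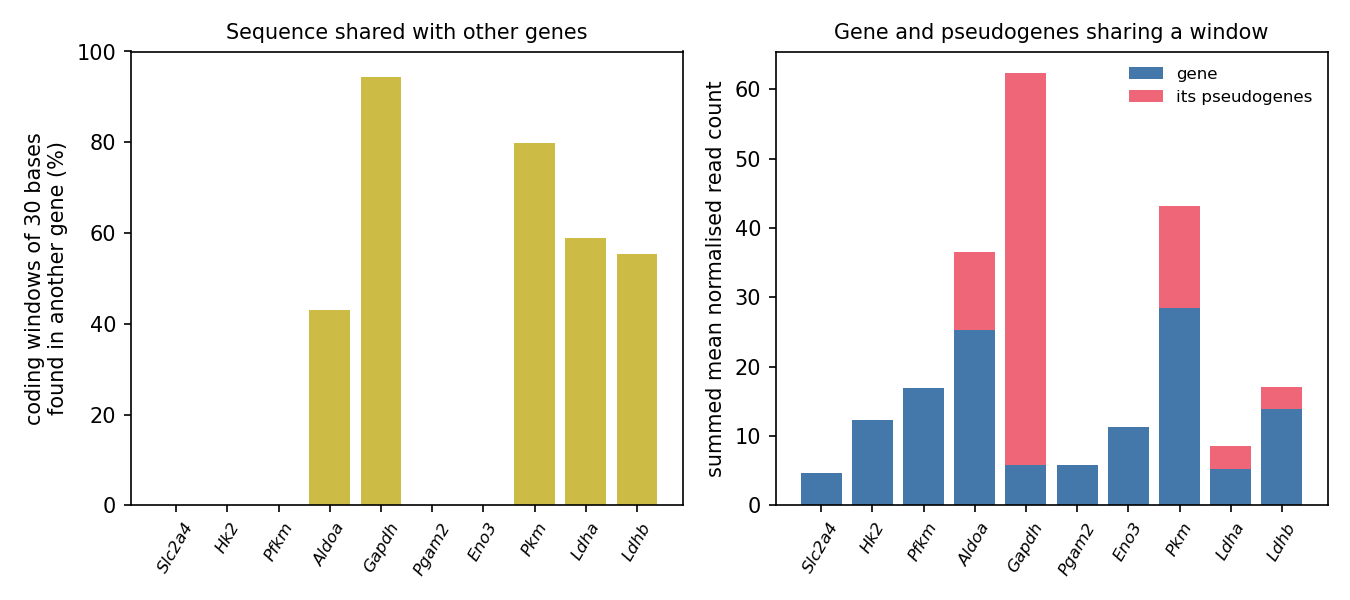
Left, percent of coding windows of 30 bases found exactly in another gene for each of the 10 genes; right, mean normalised read count of the gene (blue) with the summed means of pseudogenes that share a window stacked above it (red). Gapdh reaches 94.3% on the left and carries 56.5 of pseudogene signal over 5.83 of its own. In contrast, Slc2a4, Hk2, Pfkm, Pgam2 and Eno3 carry none at this window length.

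Counting the copies with their parents changed the order of the genes. Each copy was counted in full, whatever its share of the windows of the parent. Single copies held up to 94.3% of the windows of Gapdh and 59.5% of those of Pkm. The highest shares were 55.4% for Ldhb, 26.6% for Ldha and only 16.7% for Aldoa, so these sums are not alike. Gapdh moved from the seventh to the first place, with 64.0 summed over the gene, its pseudogenes and its protein-coding copies (among them Peli2, which shares 15.5% of the windows, at 0.619), ahead of Aldoa at 43.4 and Pkm at 43.2. Ldhb with its copy was 1.99-fold above Ldha with its copies, against 2.66-fold for the genes alone. The lead of Eno3 over Eno1 shrank from 4.37-fold to 1.25-fold by mean, since Eno1 shares windows with the pseudogene Gm4735 (3.42) and the gene Eno1b (2.91). Pgam2 was 1.74-fold above Pgam1 with its copies, against 2.78-fold alone.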

How the data were processed

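Reads were single-end. For alignment to mm10 the authors ran Bowtie2 (2.3.4.1) with defaults, and for strand-specific counts per gene featureCounts (1.6.3). The gene models were those of Ensembl 94 (GRCm38), to which an in-house set for mtDNA was added. The authors normalised the counts with DESeq2 (1.18.1) under R (3.5.1). The deposited signal used here is the mean per gene of read counts divided by a size factor per library, averaged by the authors over 8 libraries. The columns of the authors' own comparison (fold change, its error, a statistic and p-values) were not used. The other sheet holds 8 columns of per-library values that could not be assigned by name to a library or genotype and were not used, so the planned limma test of knockout against wild type was not run, and depth per library is not given.

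Levels per kb used the union of exons in GENCODE release M21 on GRCm38, in which all 10 genes had the deposited coordinates. The longest-coding transcript was an added scale. Windows of 30 bases, from coding sequence since a first search over whole transcripts matched very many genes outside it, were searched in all M21 transcripts. Protein-coding genes were counted as copies where they held at least 5% of the windows. These choices were made after the data had been seen. The window search was tested on simulated data. Named genes were the 10 members, the 3 highest of each pathway list, and isoenzymes, neighbours and copies chosen after their values were seen. Some genes of these lists and 1 sequence are not reported here. Members and lists were chosen with earlier results of these data known. Python version 3.11.15 with numpy 2.4.6, pandas 2.3.3 and matplotlib 3.10.9 was used.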

Additional observations from a re-analysis of the deposited data

How the results depend on the processing

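The median position of the 10 genes was above 98.4% of protein-coding genes with a mean above 0, 97.3% when ranked among all features with a mean above 0, and 94.7% among protein-coding genes with a mean of at least 1. The number of the 10 genes in the top 5% was 10, 8 and 4 on these 3 rankings in turn, and in the top 1% it was 3, 0 and 0. The median level per kb was 5.38 over exons, 1.03 over the span from gene start to gene end, and 6.38 over the longest-coding transcript (added after the data had been seen). The order of the genes per kb depended on the length used, with Ldhb first over exons and Aldoa first on both other scales. With windows of 25 or 20 bases, the median percentage of windows found elsewhere was 26.5 and 31.6 against 21.5 at 30 bases, and 5 genes stayed above 10% at each length. The genes with 0 shared windows at 30 bases did not stay at 0. Their highest share was 0.544% at 25 bases (Pgam2) and 1.71% at 20 bases (Eno3). Pseudogenes sharing those windows had summed means of 1.24 for Pgam2 and 3.57 for Eno3. Tests between genotypes, pseudocounts, other scalings and fits without a library were not run, since columns that could not be assigned by name to a library of this series were not used for any purpose. No paired analysis was possible because the columns carry no replicate numbers of the labels. The means have no error here, and those under 1 rest on few reads, as do several above 1. Summed over the 8 libraries, normalised counts were 13.9 for Slc2a1, 16.6 for Pgam1, 19.7 for Pfkl and 37.9 for Slc2a4, against 227 for Pkm. Ratios and places that use such low sums are uncertain to an extent that was not computed.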
